A study of Mus musculus with 12 samples.

Results

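The comparison described here set retinal explants of B6 mice cultured for 3 days in vitro (3DIV) with the GSK3 inhibitor CHIR99021 against B6 explants cultured for the same time without it. Its members were all 45037 non-control probes of the Affymetrix Mouse Genome 430 2.0 array, on 4 of the 12 arrays of the series, 2 with the inhibitor and 2 with vehicle. Each array held RNA of whole neural retina from mice 10 weeks old. B6 mice were of the strain C57BL/6NCrSlc, and the vehicle explants served as the control for CHIR99021, which the labels give at 15 µM. The other 8 arrays held intact B6 retina, intact retina of the strain 129X1/SvJJmsSlc (129), and 129 explants with vehicle and with CHIR99021, with 2 arrays in each group. They entered the fit for its estimate of the spread, and the 129 explants were used to ask where the response of B6 differed. The 2 arrays of each group are labelled as biological replicates, and the methods state that 2 retinas were used for each condition, so p-values measure only the spread between these samples. Whether the 2 retinas of a group came from 1 animal was not stated.

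GSK3 is a protein kinase that phosphorylates β-catenin and so marks it for destruction. When a Wnt ligand binds its receptor, or when a compound such as CHIR99021 blocks the kinase, β-catenin accumulates, enters the nucleus and switches on target genes with TCF/LEF factors. GSK3 also acts on glycogen synthase, on Myc and on many other proteins, so that its inhibition reaches beyond Wnt targets. Müller glia, the main glial cells of the retina, can re-enter the cell cycle after damage such as the making of an explant. The study tested whether CHIR99021 raised the number of proliferating (EdU-positive) Müller glia in explants of adult mice.

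The 4 explant arrays carried the markers of neural retina. The summed intensity of 32 rod genes was 121911 and 127297 in vehicle and 88863 and 88201 in treated explants. That of 13 genes of the pigmented epithelium was 621 to 704 in the explants, against 12216 and 10069.7 in intact B6 retina. The 2 arrays of a group correlated at r of 0.997 to 0.998 over all probes, and 10 probes differed by over 2-fold between the vehicle arrays and 24 between the treated ones. In tissue that was lysed whole, fewer cells of a type and less RNA per cell cannot be told apart.

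Many measured genes differed between CHIR99021 and vehicle explants of B6, most of them by less than 2-fold. At an adjusted p below 0.05 (limma, Benjamini-Hochberg over all probes), 8379 of 45037 probes were called (18.6%), of which 4243 (9.42%) were higher and 4136 (9.18%) were lower with the inhibitor. Among them 264 rose and 225 fell by at least 2-fold. When the probe with the highest mean stood for its gene, 18193 genes were tested and 21.1% were called, 1562 (8.59%) higher and 2276 (12.5%) lower. Of these, 71 rose and 137 fell by at least 2-fold. The 2 treated arrays lay wholly above or wholly below the 2 vehicle arrays for 25967 probes (57.7%), and 17588 of these were not called. No called probe had overlapping groups, so the arrays of each gene called below did not overlap. Leaving out 1 of the 4 arrays lowered the number of calls to 5317 without vehicle replicate 1, 4756 without vehicle replicate 2, 5355 without CHIR99021 replicate 1 and 5081 without CHIR99021 replicate 2.

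**Figure D1:**
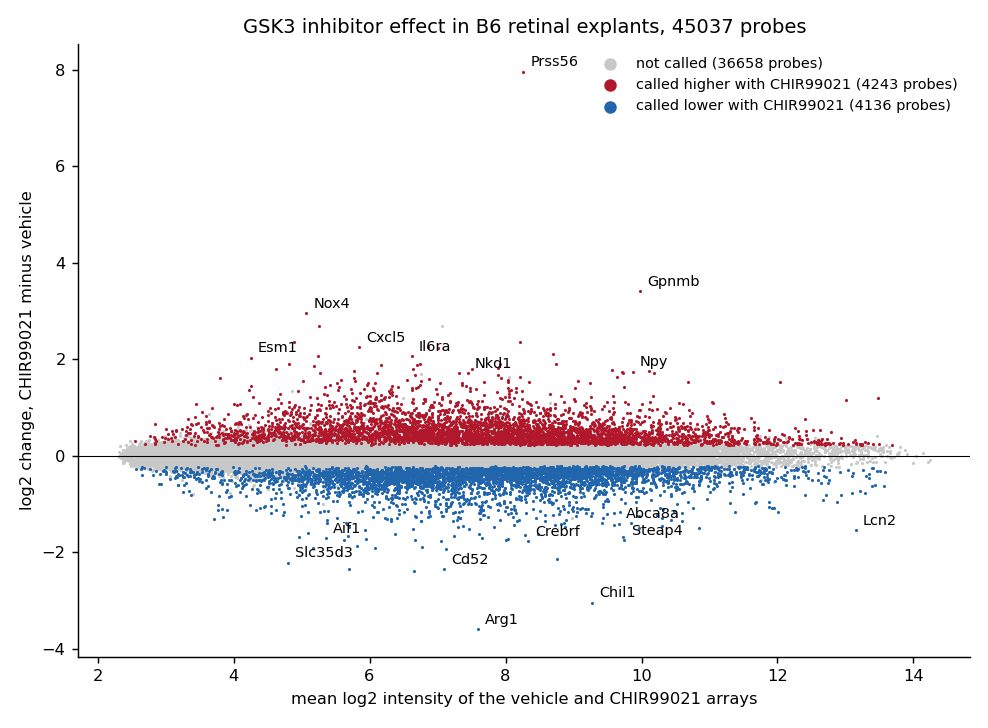
Log2 change between CHIR99021 and vehicle explants of B6 (vertical axis) against the mean log2 intensity of the 4 arrays (horizontal axis), with 1 point for each of the 45037 probes; red and blue points were called higher (4243) and lower (4136). Prss56 stood alone at a log2 change of 7.95, and most called probes lay between the level of no change and a 2-fold change.

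The largest change of the comparison was that of Prss56, a secreted serine protease that Müller glia make in the eye and whose mutation shortens the eye. Its intensity was 22.2 and 17.2 in vehicle and 4676 and 5009 in CHIR99021 explants, against 70.6 and 74.5 in intact retina. The log2 change was 7.95 ± 0.12 (SE of the model), a ratio of 248 between the RMA intensities (adjusted p = 8.2e-11), and it was 7.67 in 129 explants. The table gives no detection call, so that a ratio over vehicle values as low as these is that of the RMA values and depends on the background in them. Prss56 thus fell in culture and stood far above the intact level with the inhibitor. Gpnmb, a glycoprotein of lysosomes and melanosomes that macrophages also make, read 335 and 287 in vehicle and 3299 and 3288 in treated explants, a log2 change of 3.41 ± 0.12 (adjusted p = 4.6e-07). It had already risen from 121 and 117 in intact retina.

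Nox4, an NADPH oxidase that makes hydrogen peroxide, was low in vehicle explants, at 11.9 and 12.2, where the same limit holds, and reached 104 and 83.2 with CHIR99021. Its log2 change was 2.95 ± 0.13 in B6 (adjusted p = 1.2e-06) and 0.17 in 129. A second probe of Nox4 rose by 0.65 in B6. The neutrophil chemokine Cxcl5 went from 25.0 and 28.1 to 124 and 127 (log2 change 2.24 ± 0.15). Esm1, a proteoglycan that endothelial cells secrete, went from 10.1 and 8.89 to 41.7 and 35.6 (2.03 ± 0.12). In 129 explants these 2 genes changed by 0.66 and 0.81, and the test of the difference between strains called all 3 genes, as given below.

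Il6ra, the ligand-binding chain of the interleukin 6 receptor, rose from 50.1 and 46.4 to 196 and 205 (log2 change 2.06 ± 0.11, adjusted p = 4.3e-06) and by 2.32 in 129. Calcb, a calcitonin gene-related peptide of neurons, changed from 18.1 and 20.4 to 62.3 and 76.8 (1.85 ± 0.14). Cxcr4, the receptor of the chemokine Cxcl12, was measured at 14.7 and 11.9 with vehicle and 41.9 and 50.1 with CHIR99021 (1.79 ± 0.15). Cyp1b1, a cytochrome P450 whose loss causes congenital glaucoma, was at 462 and 460.1 with vehicle and 1258 and 1846 with the inhibitor on its strongest probe (1.72 ± 0.18). Dclk1, a microtubule-binding kinase of growing neurons, was at 661 and 631 with vehicle and 2056 and 2169 with CHIR99021 (1.71 ± 0.10), and of its 9 probes 6 were called higher. Trpm1, the cation channel of ON bipolar cells and a melanocyte gene, rose by 2.25 ± 0.23 from 57.8 and 49.1, with the treated arrays wide apart at 183 and 351. The lysosomal membrane protein gene Gpr137b rose from 399 and 324 to 872 and 1179.9 (1.496 ± 0.14), and the unnamed transcript 4930444P10Rik from 12.4 and 17.0 to 57.9 and 50.7 (1.90 ± 0.18).

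The 3 largest falls, and those of Steap4 and Tgfbi, were of genes that culture had raised. Arg1, the arginase of the urea cycle and of alternatively activated macrophages, read 14.1 and 16.6 in intact retina, 854 and 525 in vehicle explants and 36.5 and 84.1 with CHIR99021. The vehicle arrays and the treated arrays each differed between themselves, yet did not overlap, and the log2 change was -3.59 ± 0.37 (adjusted p = 1.4e-04). Chil1, a secreted chitinase-like protein of activated glia and macrophages, fell from 1796 and 1750.3 to 191 and 239, close to the 160.1 and 127 of intact retina (-3.05 ± 0.17, adjusted p = 4.5e-06). Cd52, a surface peptide of leukocytes, fell from 308 and 314 to 52.7 and 69.4 (-2.36 ± 0.13). The metalloreductase Steap4 fell from 1481 and 1682 to 419.9 and 521 (-1.76 ± 0.18) and the matrix protein Tgfbi from 547 and 406 to 133 and 148 (-1.75 ± 0.18), both still far above their intact levels of 19.5 and 13.8 for Steap4 and 37.0 and 41.8 for Tgfbi. In 129 these 5 genes were called lower too, with log2 changes of -2.87, -2.55, -1.62, -1.99 and -1.52.

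Most of the other large falls took genes below their level in intact retina, with Fxyd3 as the exception. Crebrf, a regulator of CREB3 and of glucocorticoid receptor turnover, stood at 627 and 551 in intact retina, 575 and 624 with vehicle and 175 and 174 with the inhibitor (-1.78 ± 0.09, adjusted p = 2.9e-06). Frat2, which encodes a protein that binds GSK3 itself, was at 188 and 215 in intact retina, 188 and 185 with vehicle and 59.8 and 51.8 with CHIR99021 (-1.75 ± 0.10, adjusted p = 4.9e-06), and its relative Frat1 fell from 102 and 106 to 36.7 and 35.0 (-1.54 ± 0.07). Ypel4 fell from 467 and 486 to 145 and 141 (-1.73 ± 0.09), Ccpg1os, a transcript beside the ER-phagy receptor gene Ccpg1, from 247 and 246 to 73.0 and 70.9 (-1.78 ± 0.08), and Olfm4, a secreted glycoprotein, from 129 and 134 to 34.4 and 35.5 (-1.91 ± 0.14). Deptor, an inhibitor of mTOR kinase, changed by -1.07 ± 0.10 on its strongest probe and by -2.36 on another, and both were called. Slc35d3, a member of the nucleotide sugar transporter family, went from 59.7 and 60.8 to 12.7 and 13.1 (-2.22 ± 0.12). Fxyd3, a regulator of the sodium pump, had risen in culture and fell from 267 and 277 to 72.4 and 70.2 (-1.93 ± 0.11), against 69.9 and 68.8 in intact retina.

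**Figure D2:**
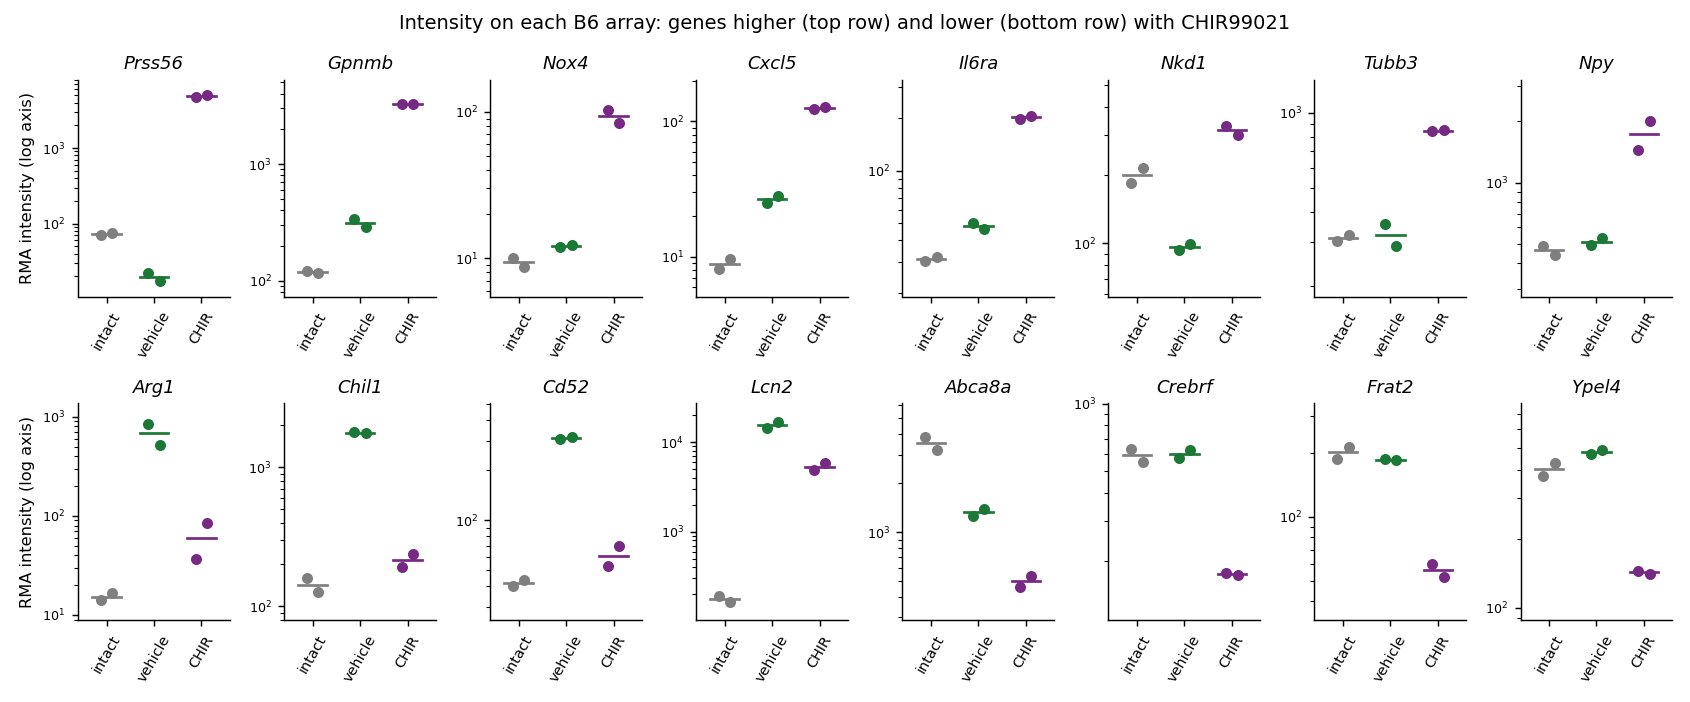
RMA intensity (log axis) of 16 genes on each of the 6 B6 arrays, intact retina (grey), vehicle explants (green) and CHIR99021 explants (purple); each point is an array and each bar the mean of the 2. The upper genes were higher with CHIR99021 and the lower genes were lower; Arg1, Chil1, Cd52 and Lcn2 rose in culture and moved back, while Crebrf, Frat2 and Ypel4 fell from a level near that of intact retina.

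Canonical Wnt targets were the first question put to the inhibitor. Of 21 measured targets of β-catenin and TCF/LEF, 4 were called higher and 1 lower, beside 8.59% and 12.5% of all genes. The median log2 change was 0.10, beside -0.01 over all genes. Nkd1, a feedback inhibitor that binds Dishevelled, rose from 93.2 and 99.6 to 329 and 301 (log2 change 1.71 ± 0.10, adjusted p = 7.0e-06), against 185 and 215 in intact retina, and by 1.40 in 129. Znrf3, a ubiquitin ligase that removes Wnt receptors, was at 234 and 235 with vehicle and 297 and 313 with CHIR99021 (0.38 ± 0.08, adjusted p = 0.0081). The transcription factor Sp5 went from 24.7 and 24.4 to 37.3 and 30.5 (0.46 ± 0.12, adjusted p = 0.019) and Lef1 from 37.1 and 49.9 to 55.0 and 58.1 (0.39 ± 0.12, adjusted p = 0.037). Axin2, the scaffold whose gene is the usual reporter of the pathway, read 198 and 199.6 with vehicle and 238 and 245 with CHIR99021; the arrays did not overlap, but its log2 change of 0.28 ± 0.09 had an adjusted p of 0.051. Ccnd1, encoding Cyclin D1, was at 856 and 1036 in vehicle and 1092 and 1106 in treated explants (0.22 ± 0.13, adjusted p = 0.29) and Myc at 109.6 and 113 with vehicle and 100.2 and 109 with CHIR99021 (-0.09 ± 0.18, adjusted p = 0.8). The stem cell receptor gene Lgr5 fell by 0.37 ± 0.10. Among Wnt targets, the number called higher was 2 without vehicle replicate 1 or CHIR99021 replicates 1 or 2. With 1 array left out, the adjusted p reached 0.057 for Znrf3 (without CHIR99021 replicate 2), 0.14 for Sp5 (without vehicle replicates 1 or 2 or CHIR99021 replicate 1), 0.23 for Lef1 (without 7 of the 12 arrays in turn) and 0.2 for Lgr5 (without vehicle replicate 2 or CHIR99021 replicate 1).

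In the promoters of the Wnt targets the core TCF/LEF site was searched as CTTTGAT on both strands, from 250 bases before to 50 after the RefSeq start (GRCm38.p6). It was found in 2 of 14 list members with a window, Sp5 and Tnfrsf19, beside 4.29% of 27025 genes. Sp5 responded more in 129 than in B6, a call lost in 7 of 17 alternative settings. The stretch from RefSeq around the site of Sp5 is given from chr2:70474779-70474865 (plus strand), with the site in capitals.
Sp5: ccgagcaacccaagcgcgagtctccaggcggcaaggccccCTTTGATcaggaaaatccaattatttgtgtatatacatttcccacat
A match is a description of the letters and not a binding site.

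Among the ligands, 1 of 23 rose and 2 fell, shares not above the 8.59% and 12.5% of all genes. Wnt7b rose from 126 and 138 to 195 and 210.1 (0.62 ± 0.13), Wnt9a fell from 78.3 and 87.0 to 43.0 and 54.5 (-0.77 ± 0.12) and Wnt5a from 76.5 and 76.9 to 49.0 and 52.9 (-0.59 ± 0.13). Of 16 receptors, Fzd6 rose from 221 and 222 to 425 and 523 (1.09 ± 0.21) and the tyrosine kinase receptor Ror2 from 54.2 and 44.4 to 135 and 91.8 (1.18 ± 0.16), while Ror1 fell by 0.78 ± 0.17. Of 18 inhibitors only the corepressor gene Tle2 was called on the strongest probe of each gene (-0.52 ± 0.12). Other probes of inhibitor genes were called higher, such as 2 of the 5 of Sfrp1 (up to 1.36). The same held for 1 probe each of Dkk3 (0.70), Tle4 (0.63) and Frzb (0.61), while 1 of Kremen1 was called lower (-0.33). Among Wnt ligands, the number called lower was 1 without vehicle replicates 1 or 2 or CHIR99021 replicate 1 and 4 without 129 intact replicates 1 or 2. Leaving out 1 array, the adjusted p reached 0.067 for Wnt7b (without vehicle replicate 1 or CHIR99021 replicate 2), 0.068 for Wnt5a (without vehicle replicates 1 or 2 or CHIR99021 replicate 1), 0.067 for Ror1 (without vehicle replicate 2) and 0.093 for Tle2 (without vehicle replicate 2 or CHIR99021 replicate 1).

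On the strongest probe of each gene the mRNA of the kinase itself and of β-catenin did not pass the test. Gsk3a read 1163 and 1178 in vehicle and 1148 and 1073 in treated explants (-0.08 ± 0.07, adjusted p = 0.51), Gsk3b 1674 and 1346 with vehicle and 1784 and 1669.5 with CHIR99021 (0.20 ± 0.11, 0.23), and Ctnnb1, encoding β-catenin, 4428 and 4592 with vehicle and 4638 and 4458 with CHIR99021 (0.01 ± 0.07, 0.93). Other probes were called, 1 of the 3 of Ctnnb1 higher (0.61) and, of the 6 of Gsk3b, 1 higher (0.32) and 1 lower (-0.33). Of the 21 genes of the destruction complex and β-catenin partners, 4 were called lower by small steps (Bcl9, Apc2, Btrc and Dvl1, from -0.43 to -0.24), and 0 were when arrays were centred on housekeeping genes. Glycogen synthase is another classical target of GSK3. Of 15 genes of glycogen metabolism, Pygb, a glycogen phosphorylase, fell from 624 and 704 to 455 and 461 (-0.53 ± 0.10). The branching enzyme gene Gbe1 rose by 0.38 ± 0.09, and 1 more was called in each direction (Ugp2 higher, Ppp1r3c lower). The other probe of Ppp1r3c was at 0.38 and was not called. Of all genes 8.59% were called higher and 12.5% lower. Among the β-catenin partners, the number called lower was 0 without vehicle replicate 2 or CHIR99021 replicate 1 and 1 without vehicle replicate 1 or CHIR99021 replicate 2. Among glycogen genes, the number called higher was 0 without vehicle replicate 2 or CHIR99021 replicate 2 and 1 without 5 of the 12 arrays in turn, and the number called lower was 1 without vehicle replicates 1 or 2 or CHIR99021 replicate 1. When 1 array was left out, the adjusted p reached 0.22 for Bcl9 (without vehicle replicate 2 or CHIR99021 replicates 1 or 2), 0.18 for Apc2 (without vehicle replicates 1 or 2 or CHIR99021 replicate 1), 0.14 for Btrc (without any 1 of the 4 arrays), 0.19 for Dvl1 (without 10 of the 12 arrays in turn), 0.096 for Gbe1 (without vehicle replicate 2 or CHIR99021 replicate 2), 0.26 for Ugp2 (without 7 of the 12 arrays in turn) and 0.14 for Ppp1r3c (without vehicle replicates 1 or 2 or CHIR99021 replicate 1).

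Most genes of cholesterol synthesis rose with the inhibitor. Of 20 genes of its synthesis and uptake, 14 were called higher and 0 lower, beside 8.59% of all genes called higher, with a median log2 change of 0.63. Of the same genes 13 rose in 129, beside 7.28% of all genes. Hmgcs1, which makes the precursor of mevalonate, was measured at 1377 and 1506 in vehicle and 2207 and 2294 in treated explants (0.64 ± 0.08). Idi1, an isoprenoid isomerase, went from 420.3 and 379.6 to 861 and 838 (1.09 ± 0.08) and Sqle, squalene epoxidase, from 381 and 369 to 712 and 663 (0.87 ± 0.08). Further down the pathway Cyp51 went from 152 and 144 to 374 and 364 (1.32 ± 0.07, adjusted p = 4.5e-06), Msmo1, a sterol oxidase, from 345 and 287 to 964 and 869 (1.54 ± 0.13), and Sc5d from 216 and 254 to 471 and 419 (0.92 ± 0.10). The SREBP retention protein gene Insig1 and the sterol carrier gene Stard4 rose by 0.71 ± 0.07 and 0.94 ± 0.09. The number called higher remained 14 when any 1 of the 12 arrays was left out.

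Culture alone had moved the same list the other way. Between intact retina and vehicle explants 17 of the 20 were called lower and 2 higher, beside 16.9% and 19.3% of all genes. This comparison shares the vehicle arrays with that of the inhibitor, so the values are given side by side. Idi1 read 839 and 779 in intact retina and Hmgcs1 2649 and 2558, so that the treated arrays stood near the intact level for Idi1 and below it for Hmgcs1. Of 9 genes of LXR targets and fatty acid synthesis, 3 rose with the inhibitor, beside 8.59% of all genes. Scd1, a fatty acid desaturase, went from 80.3 and 85.5 to 169.7 and 175 (1.06 ± 0.08) and Fasn, fatty acid synthase, from 485 and 516 to 710.1 and 689 (0.48 ± 0.07). The sterol exporter gene Abcg1, an LXR target, fell from 669 and 718 to 345 and 340.3 (-1.02 ± 0.08).

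The sterol regulatory element was searched as TCACCCCA in the same windows and lay in those of 2 of 16 cholesterol genes, beside 1.77% of all genes. One of them, Hmgcs1, rose, and its stretch at chr13:119690174-119690261 (plus strand) is shown with the element in capitals.
Hmgcs1: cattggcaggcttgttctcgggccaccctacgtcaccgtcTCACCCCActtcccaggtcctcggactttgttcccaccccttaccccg

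Most genes of the integrated stress response, which the factor ATF4 drives when translation is braked, rose. Of 31 measured members 21 were called higher and none lower, with a median of 0.49, beside 8.59% of all genes called higher, and 20 were called higher in 129, beside 7.28%. The stress sensor gene Sesn2 rose from 154 and 152 to 445 and 459.5 (1.56 ± 0.12, adjusted p = 2.1e-05), and the mitochondrial folate enzyme gene Mthfd2 from 288 and 348 to 675 and 693 (1.11 ± 0.21). Psat1 of serine synthesis went from 473 and 502 to 1011 and 985 (1.03 ± 0.07) and Asns, asparagine synthetase, from 949.5 and 995 to 1758 and 1809.9 (0.88 ± 0.10). The glutathione-degrading enzyme gene Chac1 was at 205 and 215 with vehicle and 361 and 374 with CHIR99021 (0.81 ± 0.12), the cystine carrier gene Slc7a11 at 77.7 and 90.3 with vehicle and 148 and 159.7 with CHIR99021 (0.88 ± 0.20) and the leucine carrier gene Slc7a5 at 652 and 665 with vehicle and 1015 and 1128 with CHIR99021 (0.70 ± 0.11). Atf4 itself rose by 0.38 ± 0.09 and Ddit3, encoding CHOP, by 0.47 ± 0.10. Culture had already raised 26 of the 31 above intact retina, beside 19.3% of all genes. Chac1 had been at 50.4 and 45.2 in intact retina and Asns at 394 and 398. Among the stress response list, the number called higher was 12 without vehicle replicate 1. In fits without 1 array, the adjusted p reached 0.087 for Slc7a11 (without vehicle replicate 1 or CHIR99021 replicate 2), 0.099 for Atf4 (without vehicle replicates 1 or 2 or CHIR99021 replicate 2) and 0.069 for Ddit3 (without vehicle replicate 1 or CHIR99021 replicate 2).

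Most genes of the unfolded protein response, such as the chaperones of the endoplasmic reticulum that ATF6 and XBP1 induce, rose as well. Of 18 members 11 were called higher and none lower in B6, with a median of 0.35, beside the same 8.59%. In 129, 12 were called higher, beside 7.28% of all genes. The chaperone gene Hspa5, encoding BiP, was at 4279 and 4213 with vehicle and 5951 and 6141 with CHIR99021 (0.51 ± 0.08), its partner Sdf2l1 at 214 and 229 with vehicle and 367 and 392 with CHIR99021 (0.78 ± 0.08), and Xbp1 at 1889 and 1803 with vehicle and 2976 and 2638 with CHIR99021 (0.60 ± 0.09). The secreted factor Manf rose by 0.42 ± 0.08 and the disulfide isomerase gene Pdia6 by 0.54 ± 0.08. Without vehicle replicate 2, the members called higher in B6 were no longer most of the list. Over fits without 1 array the median of the list ran from 0.30 to 0.37. Culture alone raised 5 and lowered 2 of the 18 members of this list, beside 19.3% and 16.9% of all genes.

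Promoter windows were searched for the C/EBP-ATF response element TTGCATCA and for the ER stress response element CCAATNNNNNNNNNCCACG, both on either strand. The first was found in 7 of 26 integrated stress response genes with a window, beside 1.03% of all genes, and in 2 of the 17 that rose, Chac1 and Slc7a11. The second was found in 7 of 15 unfolded protein response genes, beside 0.137% of all genes, and in 4 of the 9 that rose, Hspa5, Pdia6, Creld2 and Dnajc3. On their strongest probes the other members with a match had not been called higher, 5 and 3 in number. Among these, weaker probes were called higher for Vldlr (3 of 6, up to 0.73) and Hsp90b1 (1 of 2, 0.45). Shown are the windows of the genes that rose, at chr2:119351009-119351096 (plus strand), chr3:50443632-50443719 (minus strand), chr2:34771985-34772083 (plus strand), chr12:17266451-17266549 (plus strand), chr15:88819480-88819578 (plus strand) and chr14:118937787-118937885 (plus strand) in this order, each on its gene's strand with the element in capitals; the window of Slc7a11 holds the element again in lower case on the other strand. Without 1 of the arrays, the adjusted p reached 0.094 for Creld2 (without vehicle replicate 1 or CHIR99021 replicate 2) and 0.051 for Dnajc3 (without vehicle replicate 2).
Chac1: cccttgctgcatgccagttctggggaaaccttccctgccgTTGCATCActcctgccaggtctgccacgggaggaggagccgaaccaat
Slc7a11: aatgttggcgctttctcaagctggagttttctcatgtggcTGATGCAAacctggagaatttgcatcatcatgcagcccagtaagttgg
Hspa5: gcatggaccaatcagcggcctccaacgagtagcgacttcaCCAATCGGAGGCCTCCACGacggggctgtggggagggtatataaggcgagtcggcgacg
Pdia6: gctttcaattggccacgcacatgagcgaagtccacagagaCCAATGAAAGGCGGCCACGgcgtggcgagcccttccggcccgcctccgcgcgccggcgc
Creld2: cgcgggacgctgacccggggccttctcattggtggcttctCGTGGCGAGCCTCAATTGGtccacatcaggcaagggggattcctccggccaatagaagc
Dnajc3: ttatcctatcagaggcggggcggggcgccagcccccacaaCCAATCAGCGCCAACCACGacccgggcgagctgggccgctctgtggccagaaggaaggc
For Creld2 and Slc7a11 the capitals give the element as it reads on the opposite strand.

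**Figure D3:**
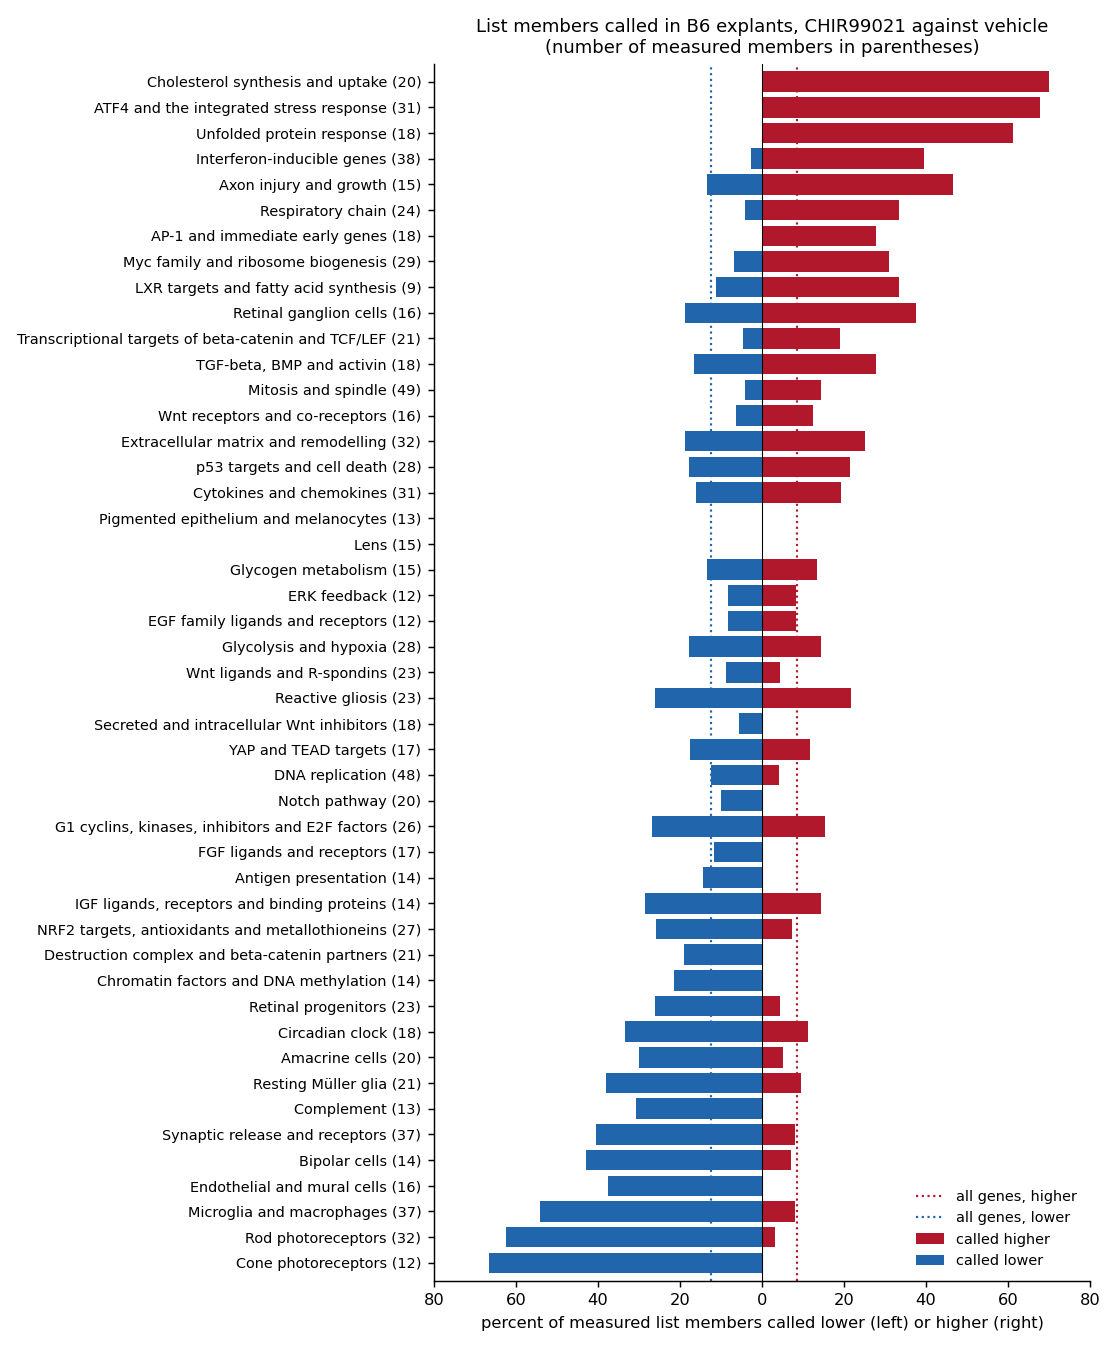
Percent of the measured members of each gene list called higher (red, to the right) or lower (blue, to the left) in B6 explants with CHIR99021 at an adjusted p below 0.05, with the share of all genes as dotted lines (8.59% and 12.5%); lists of 9 or more measured genes are drawn, without those of housekeeping, lysosome and FOXO genes. Cholesterol synthesis, the integrated stress response and the unfolded protein response lie at the top, and rods, cones and microglia at the bottom.

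Most genes of mitosis responded less in B6 explants than in those of 129. Of 49 measured genes of mitosis and the spindle, 7 were called higher and 2 lower in B6, beside 8.59% and 12.5% of all genes, with a median log2 change of 0.16. In 129 explants 44 of the 49 were called higher and none lower, beside 7.28% and 7.86% of all genes, with a median of 1.28. The difference of the 2 responses was called for 35 of the 49, all with the lower log2 change in B6. Of all genes, 0.599% had such a difference. Mki67, which marks cycling cells, was at 116 and 98.3 in vehicle and 122 and 118 in treated B6 explants (0.17 ± 0.14, adjusted p = 0.48), whereas in 129 it went from 131 and 133 to 578 and 436 (1.93). Cdc20, an activator of the anaphase ubiquitin ligase, was at 118 and 115 with vehicle and 119 and 123 with CHIR99021 in B6 and at 128 and 118 with vehicle and 489.8 and 393 with CHIR99021 in 129. The mitotic kinase gene Cdk1 was at 126 and 102 with vehicle and 119 and 149.5 with CHIR99021 in B6 (0.23 ± 0.17, adjusted p = 0.42) and Ccnb2, its cyclin, at 70.2 and 76.4 with vehicle and 75.8 and 92.9 with CHIR99021 (0.20 ± 0.11, 0.28). Esco2, a cohesin acetylase, and Depdc1a, which rose by 2.22 and 2.24 in 129, changed by 0.16 ± 0.09 and 0.19 ± 0.14 in B6, at low intensities. Among genes of mitosis, the number called higher was 2 without vehicle replicate 2, 3 without CHIR99021 replicate 1 and 4 without CHIR99021 replicate 2, and the number called lower was 1 without vehicle replicates 1 or 2 or CHIR99021 replicate 1 and 4 without 129 CHIR99021 replicates 1 or 2.

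The genes that did rise in B6 were few. The centromere protein gene Cenpf rose from 38.8 and 26.4 to 69.0 and 60.8 (1.02 ± 0.17), the kinase gene Pbk from 75.5 and 70.8 to 118 and 139 (0.81 ± 0.15) and the spindle protein gene Nusap1 from 44.5 and 41.4 to 64.2 and 58.1 (0.51 ± 0.12), each by less than in 129 (2.36, 2.07 and 1.75; adjusted p of the difference 0.025, 0.021 and 0.0082). The checkpoint kinase gene Bub1b fell from 152 and 142 to 96.6 and 93.2 (-0.63 ± 0.10). Of 48 genes of DNA replication 2 rose and 6 fell in B6. In 129, 19 rose and 1 fell, beside 7.28% and 7.86% of all genes. The shares of the list called in B6 were not above the 12.5% of all genes called lower and the 8.59% called higher. Mcm7, a subunit of the replicative helicase, fell from 745 and 739 to 326 and 365 (-1.11 ± 0.10, adjusted p = 5.7e-05), a change of -0.07 in 129 with a difference between strains of -1.04 ± 0.14 (adjusted p = 0.0074), and its partner Mcm4 fell by 0.54 ± 0.11. Rpa1, which coats single-stranded DNA, fell from 2686 and 2664 to 1735 and 1830.4 (-0.59 ± 0.07). Rrm2, a subunit of ribonucleotide reductase, rose by 0.65 ± 0.18. Among replication genes, the number called higher was 1 without vehicle replicates 1 or 2 or CHIR99021 replicate 2, and the number called lower was 2 without vehicle replicate 2 or CHIR99021 replicate 1. With 1 array left out, the adjusted p reached 0.091 for Nusap1 (without vehicle replicate 2 or CHIR99021 replicate 1), 0.071 for Mcm4 (without vehicle replicate 2 or CHIR99021 replicate 1) and 0.19 for Rrm2 (without vehicle replicates 1 or 2 or CHIR99021 replicate 2).

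In the control of G1, 4 of 26 genes rose and 7 fell, beside 8.59% and 12.5% of all genes. Cyclin D3 is the D-type cyclin of resting Müller glia. Its gene Ccnd3 fell from 795 and 925 to 499 and 537 (-0.73 ± 0.10, adjusted p = 9.0e-04) after a rise from 280.0 and 320.3 in culture. The 2 other probes of Ccnd3 were not called, with a highest log2 change of 0.04. Of the inhibitors of cyclin-dependent kinases, Cdkn1c, encoding p57, fell from 189 and 198 to 122 and 105 (-0.78 ± 0.10), Cdkn2c from 427 and 408 to 295 and 272 (-0.56 ± 0.10) and Cdkn1b, encoding p27, from 1364 and 1739 to 1039.9 and 1127 (-0.51 ± 0.11). The other probe of Cdkn1b was called higher (1.07). E2f3 rose by 0.39 ± 0.08 and Rb1, the retinoblastoma gene, by 0.47 ± 0.09. In 129 Ccnd3 and Cdkn1c changed by -0.60 and -0.87. Among genes of G1 control, the number called higher was 2 without vehicle replicates 1 or 2 or CHIR99021 replicate 2, and the number called lower was 3 without CHIR99021 replicate 1 and 4 without vehicle replicates 1 or 2 or CHIR99021 replicate 2. Leaving out 1 array, the adjusted p reached 0.078 for Cdkn1b (without vehicle replicate 2 or CHIR99021 replicate 1).

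Of 29 genes of the Myc family and ribosome biogenesis, a program that Myc drives, 9 rose and 2 fell. Of all genes 8.59% rose and 12.5% fell. The ribosome assembly factor Wdr12 rose from 247 and 262 to 378 and 379.9 (0.57 ± 0.07) and Srm, spermidine synthase, from 602 and 623 to 856 and 919 (0.53 ± 0.08). Mxd4, a repressor that competes with Myc for Max, fell from 373 and 375 to 190.4 and 194 (-0.96 ± 0.08, adjusted p = 4.8e-05). Of 28 p53 targets and cell death genes, 6 rose and 5 fell. Among genes of ribosome biogenesis, the number called higher was 3 without CHIR99021 replicate 1, 4 without vehicle replicate 2 and 5 without vehicle replicate 1 or CHIR99021 replicate 2, and the number called lower was 1 without vehicle replicate 2 or CHIR99021 replicate 1. Among p53 targets, the number called higher was 2 without vehicle replicate 1 and 3 without 7 of the 12 arrays in turn.

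**Figure D4:**
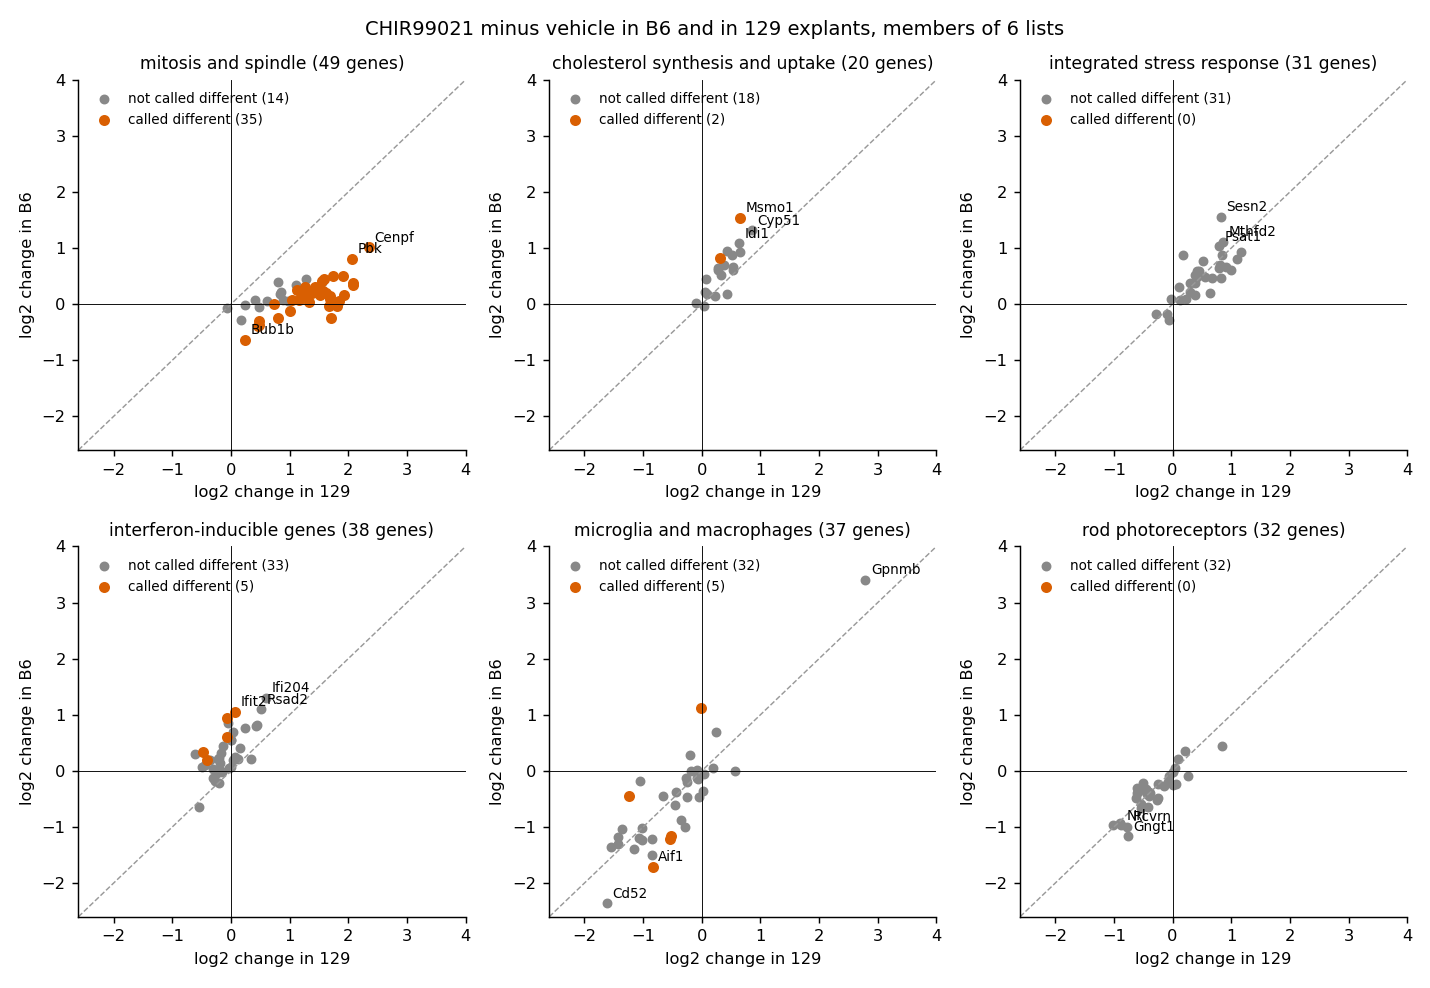
Log2 change between CHIR99021 and vehicle in B6 (vertical axis) against that in 129 (horizontal axis), with 1 point for each member of 6 gene lists; the dashed line marks equal change, and orange points had a called difference between strains. Genes of mitosis lie below the line, near no change in B6, those of the integrated stress response and rods along it, and several interferon-inducible genes above it.

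Most photoreceptor genes fell with the inhibitor. Of 32 rod genes 20 were called lower and 1 higher in B6, beside 12.5% and 8.59% of all genes, with a median log2 change of -0.37. In 129, 18 were called lower, beside 7.86% of all genes, with a median of -0.41. Gngt1, a subunit of rod transducin, was at 11088 and 11139 in intact retina, 5745 and 6644 in vehicle and 2479 and 3074 in treated explants (-1.16 ± 0.11, adjusted p = 6.8e-05). The calcium sensor genes Rcvrn and Guca1a went from 3485 and 3602 to 1869 and 1699 (-0.99 ± 0.17) and from 4543 and 4681 to 2368 and 2349 (-0.97 ± 0.08). Nrl, the transcription factor that sets the fate of rods, went from 4967 and 5522 to 2676 and 2678 (-0.97 ± 0.11), and rod arrestin, Sag, from 14998 and 15291 to 9698 and 9805 (-0.64 ± 0.07). Reep6, needed for membrane traffic in rods, was the single rise, from 1682 and 1811 to 2538 and 2196 (0.44 ± 0.11). Among rod genes, the number called lower was 11 without CHIR99021 replicate 2, 12 without vehicle replicate 2 and 13 without vehicle replicate 1. When 1 array was left out, the adjusted p reached 0.14 for Reep6 (without vehicle replicates 1 or 2 or CHIR99021 replicate 1).

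Of 12 cone genes 8 were called lower and none higher, beside 12.5% and 8.59% of all genes, with a median of -0.69. Gnat2, cone transducin, was at 2950.0 and 2801 in intact retina, 380.4 and 426 in vehicle and 167 and 224 in treated explants (-1.06 ± 0.14). Pde6h, an inhibitory subunit of the cone phosphodiesterase, was at 621 and 983 with vehicle and 167 and 472 with CHIR99021 (-1.48 ± 0.37), with both pairs of arrays wide apart, and cone arrestin, Arr3, at 146 and 171 with vehicle and 73.5 and 108 with CHIR99021 (-0.83 ± 0.23). Among cone genes, the number called lower was 3 without vehicle replicate 2 or CHIR99021 replicate 1 and 5 without vehicle replicate 1. In fits without 1 array, the adjusted p reached 0.14 for Pde6h (without vehicle replicate 2 or CHIR99021 replicate 1) and 0.21 for Arr3 (without vehicle replicates 1 or 2 or CHIR99021 replicate 1).

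Genes of inner retinal neurons were mostly lower where they were called, beside 12.5% of all genes called lower and 8.59% higher. Of 14 bipolar cell genes 6 fell, such as Gng13, a G protein subunit of ON bipolar cells, from 4584 and 4589.6 to 2099.8 and 2550.0 (-0.99 ± 0.10), and only Trpm1 rose. Of 20 amacrine cell genes 6 fell, including the transcription factor gene Tfap2b, from 1779.7 and 2010.0 to 1207 and 1298 (-0.60 ± 0.08), and the substance P gene Tac1 (-0.66 ± 0.07). Neuropeptide Y, encoded by Npy, rose from 493 and 529.6 to 1452 and 2008 (1.74 ± 0.15, adjusted p = 5.4e-05). Isl1, a transcription factor of bipolar, amacrine and ganglion cells, fell from 2619 and 2824 to 1673 and 1728 (-0.68 ± 0.08). Among amacrine cell genes, the number called lower was 3 without vehicle replicate 2 or CHIR99021 replicate 1.

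Ganglion cell genes went in both directions. Of 16 measured, 6 rose and 3 fell, beside 8.59% and 12.5% of all genes. Genes of the cytoskeleton were among those that rose, with Tubb3, neuronal β-tubulin, at 356 and 290.0 in vehicle and 847 and 851 in treated explants (1.40 ± 0.09, adjusted p = 1.0e-05), and Nefh, the heavy neurofilament, at 441 and 418 with vehicle and 798 and 804 with CHIR99021 (0.90 ± 0.09). Tubb3 had been at 305 and 321 in intact retina, while Nefh had fallen from 1090.2 and 1128. Nrn1, neuritin, rose by 0.62 ± 0.08 and Stmn2, a regulator of microtubules in growing axons, by 0.45 ± 0.09. The transcription factor gene Pou4f1, which marks ganglion cells, fell from 95.2 and 105 to 84.3 and 61.4 (-0.48 ± 0.14). Of 15 genes of axon injury and growth 7 rose, among them Sox11 from 583 and 512 to 853 and 768 (0.57 ± 0.09), and 2 fell. Among ganglion cell genes, the number called higher was 3 without vehicle replicate 1 or CHIR99021 replicate 2, and the number called lower was 1 without vehicle replicate 2. Among axon genes, the number called higher was 4 without any 1 of the 4 arrays, and the number called lower was 0 without vehicle replicate 1 and 1 without vehicle replicate 2 or CHIR99021 replicates 1 or 2. Without 1 of the arrays, the adjusted p reached 0.058 for Stmn2 (without vehicle replicate 1 or CHIR99021 replicate 2) and 0.22 for Pou4f1 (without vehicle replicates 1 or 2 or CHIR99021 replicate 2).

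Of 37 genes of synaptic release and receptors 15 fell and 3 rose, beside 12.5% and 8.59% of all genes. Cacna1f, the calcium channel of the photoreceptor ribbon synapse, fell from 549 and 575 to 365 and 357 (-0.64 ± 0.07). Cplx1, a complexin of conventional synapses, rose from 977 and 923 to 1785 and 1755 (0.90 ± 0.07, adjusted p = 3.1e-05). Among synaptic genes, the number called lower was 7 without vehicle replicate 2 and 8 without CHIR99021 replicates 1 or 2.

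Müller glia were the cells the study followed. Of 21 genes of resting Müller glia, 8 fell and 2 rose, beside 12.5% and 8.59% of all genes, with a median of 0.07. The lipid transporter gene Abca8a fell from 1266 and 1392 to 459 and 538 (-1.42 ± 0.12), against 3861 and 3179 in intact retina, and the secreted chaperone gene Clu from 12700.5 and 13664 to 7648 and 7648 (-0.78 ± 0.08). Rdh10, a retinol dehydrogenase, rose from 947 and 988 to 2880.0 and 2681 (1.52 ± 0.13, adjusted p = 4.1e-05). Of the defining markers, Glul, glutamine synthetase, was at 5943 and 6543 with vehicle and 5117 and 4893 with CHIR99021 (-0.32 ± 0.07, adjusted p = 0.011). The other probe of Glul was called higher (0.26). Further markers did not pass the test on their strongest probes, with log2 changes of 0.25 ± 0.12 for Rlbp1, the visual cycle protein CRALBP, 0.20 ± 0.08 for Slc1a3, the glutamate transporter GLAST, and -0.12 ± 0.09 for the transcription factor gene Sox9. Of the 6 probes of Slc1a3, 1 was called higher (1.19). Aqp4, the water channel of Müller end-feet, was at 1572 and 1529 with vehicle and 1309 and 1575 with CHIR99021 in B6 (-0.11 ± 0.13, adjusted p = 0.64). It fell in 129 (-1.11), with a difference of 1.0002 ± 0.19 (adjusted p = 0.029), a call lost in 7 of 18 alternative settings. Among Müller glia genes, the number called higher was 1 without 7 of the 12 arrays in turn, and the number called lower was 3 without vehicle replicate 2 and 5 without vehicle replicate 1 or CHIR99021 replicates 1 or 2. With 1 array left out, the adjusted p reached 0.088 for Glul (without vehicle replicate 2 or CHIR99021 replicate 2).

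Genes of reactive gliosis went both ways with the inhibitor. Of 23, 5 rose and 6 fell, beside 8.59% and 12.5% of all genes. Culture had raised 22 of the 23, beside 19.3% of all genes. Gfap, the intermediate filament of reactive glia, read 65.4 and 64.3 in intact retina, 367 and 246 in vehicle and 609.9 and 589 in treated explants (0.995 ± 0.18, adjusted p = 0.0031). Lif, a cytokine that Müller glia secrete after photoreceptor damage, rose from 156 and 172 to 287 and 313 (0.87 ± 0.10). Among those that fell, Lcn2, lipocalin 2, was at 192 and 163 in intact retina, 14296 and 16856 with vehicle and 4861 and 5785 with CHIR99021 (-1.55 ± 0.16, adjusted p = 1.5e-04). Timp1, a protease inhibitor, fell from 1919.6 and 2265 to 641 and 894 (-1.46 ± 0.22), Serpina3n from 1229 and 1481 to 692 and 686 (-0.97 ± 0.11) and Cp, ceruloplasmin, from 10418 and 10616 to 5188 and 5563 (-0.97 ± 0.12). S100a6 was at 4456 and 5148 with vehicle and 2805 and 3772 with CHIR99021 and was not called (-0.56 ± 0.23, adjusted p = 0.12).

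Genes that the study named and others of the endothelin, FGF and EGF lists were measured as follows. Mbd1, a methyl-CpG binding protein, read 763 and 823 in intact B6 retina, 2058 and 2117 in vehicle and 1067 and 1004 in treated explants (-1.01 ± 0.08, adjusted p = 3.0e-05). In 129 the change was -0.43, and the difference of -0.59 ± 0.11 had an adjusted p of 0.034. This call was lost in 9 of 18 alternative settings. Hmga2, a chromatin factor of fetal stem cells, was at 110.3 and 91.6 with vehicle and 107 and 119.7 with CHIR99021 in B6 (0.17 ± 0.21, adjusted p = 0.65). Edn2, the endothelin that damaged photoreceptors release, was at 2556 and 2576 with vehicle and 1889.7 and 1720.2 with CHIR99021 (-0.51 ± 0.14, adjusted p = 0.03), and its receptor gene Ednrb at 209 and 218 with vehicle and 217 and 214 with CHIR99021 (0.01 ± 0.09, 0.95). Another of the 3 probes of Ednrb was called higher (0.88). The endothelin converting enzyme gene Ece1 fell by 0.37 ± 0.07. Fgf2, a growth factor that protects photoreceptors, was at 26.9 and 38.9 with vehicle and 30.2 and 34.2 with CHIR99021 (-0.01 ± 0.16, 0.98), and Fgfr1, its receptor, fell from 347 and 388 to 234 and 272 (-0.54 ± 0.11). The EGF receptor gene Egfr fell by 0.45 ± 0.13. Leaving out 1 array, the adjusted p reached 0.15 for Edn2 (without any 1 of the 4 arrays), 0.054 for Fgfr1 (without vehicle replicate 2 or CHIR99021 replicate 1) and 0.19 for Egfr (without vehicle replicates 1 or 2 or CHIR99021 replicate 1).

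Of 23 genes of retinal progenitors 1 rose and 6 fell, beside 8.59% and 12.5% of all genes. The proneural factor Neurog2 rose from 169 and 161 to 246 and 264 (0.63 ± 0.09, adjusted p = 7.6e-04), against 59.5 and 68.8 in intact retina, and by 0.74 in 129. Of the transcription factor genes that fell, Lhx2 was at 515 and 617 with vehicle and 413 and 401 with CHIR99021 (-0.47 ± 0.09) and Rax was at 699 and 641 with vehicle and 528 and 512 with CHIR99021 (-0.36 ± 0.08), and Six3, Six6, Otx2 and Lin28a were called lower as well. On their strongest probes Nes, encoding Nestin, and Pax6 were not called (0.15 ± 0.11 and 0.22 ± 0.09). Of the 5 probes of Pax6, 2 were called higher, by up to 1.24, and 1 lower (-0.31). Among progenitor genes, the number called lower was 1 without vehicle replicate 1 and 2 without vehicle replicate 2 or CHIR99021 replicates 1 or 2. When 1 array was left out, the adjusted p reached 0.055 for Lhx2 (without vehicle replicate 2), 0.088 for Rax (without vehicle replicate 1 or CHIR99021 replicate 2), 0.14 for Six3 (without any 1 of the 4 arrays), 0.12 for Six6 (without any 1 of the 4 arrays), 0.19 for Otx2 (without 10 of the 12 arrays in turn) and 0.2 for Lin28a (without vehicle replicate 1 or CHIR99021 replicate 1).

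Most called genes of microglia and macrophages were lower, yet the list held 1 of the largest rises. Of 37 measured members 20 were called lower and 3 higher in B6, beside 12.5% of all genes called lower and 8.59% called higher. The median log2 change was -0.46. Culture had raised 32 of the 37, beside 19.3% of all genes. In 129, 16 were called lower, beside 7.86%. The 3 that rose were Gpnmb, Lgals3, a galectin of phagocytes, and Mrc1, the macrophage mannose receptor. The summed intensity of the 37 was 13176 and 12044 in vehicle and 11926 and 12429 in treated explants, of which Gpnmb made up 335 and 287 with vehicle and 3299 and 3288 with CHIR99021. Aif1, encoding the microglial marker Iba1, was at 23.2 and 22.4 in intact retina, 74.5 and 73.5 in vehicle and 20.4 and 25.1 in treated explants (-1.71 ± 0.11, adjusted p = 9.3e-06). Csf1r, the receptor on which microglia depend, went from 802 and 706 to 289 and 285 (-1.39 ± 0.08) and the fractalkine receptor gene Cx3cr1 from 151 and 115 to 57.8 and 55.4 (-1.22 ± 0.11). The signalling adaptor gene Tyrobp went from 686 and 664 to 274 and 309 (-1.21 ± 0.08), the protease gene Ctss from 1219.7 and 1116 to 472 and 555 (-1.19 ± 0.09) and the lysozyme gene Lyz2 from 1645 and 1705 to 553 and 636 (-1.498 ± 0.18). Lgals3 rose from 2102 and 1724 to 2917 and 3239 (0.69 ± 0.12) and Mrc1 from 21.6 and 17.1 to 41.0 and 42.2 (1.11 ± 0.16). With CHIR99021 the level of Aif1, Csf1r and Cx3cr1 was near that of intact retina, whereas Tyrobp and Lyz2 stayed above it.

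The complement genes called lower included the 3 chains of C1q, which microglia make. C1qa fell from 987 and 881 to 410.1 and 402 (-1.20 ± 0.08), C1qb from 1151 and 1019 to 444 and 434 (-1.30 ± 0.12) and C1qc from 446 and 375 to 193 and 185 (-1.11 ± 0.09). In all, 4 of 13 complement genes fell and none rose, beside 12.5% and 8.59% of all genes. Of 31 cytokines and chemokines 6 rose and 5 fell. Cxcl10, a chemokine that interferon induces, rose from 148 and 247 to 428 and 703 (1.52 ± 0.25), with replicates wide apart, and was at 123 and 109 with vehicle and 91.7 and 104 with CHIR99021 in 129. Ccl8 rose by 0.86 ± 0.09. Ccl6, a chemokine of myeloid cells, fell from 1445 and 1013 to 623 and 606 (-0.98 ± 0.16), and Cxcl16 was lower as well (-0.77 ± 0.09). Il6 was low, at 15.1 and 20.3 in vehicle and 18.6 and 15.0 in treated B6 explants (-0.07 ± 0.16, adjusted p = 0.82), while in 129 it fell from 54.1 and 40.2 to 14.3 and 14.3, and the difference of 1.63 ± 0.23 had an adjusted p of 0.0095. Among cytokine genes, the number called lower was 2 without CHIR99021 replicate 1 and 3 without vehicle replicate 2 or CHIR99021 replicate 2.

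The interferon-inducible genes that were called in B6 were higher with 1 exception. Of 38 measured members 15 were called higher and 1 lower, with a median log2 change of 0.23, beside 8.59% and 12.5% of all genes. In 129, 3 were called higher and 4 lower, shares near the 7.28% and 7.86% of all genes. The difference between strains was called for 5 of the 38, all higher in B6, beside 0.357% of all genes. Ifi204, a DNA sensor, was at 32.9 and 41.3 in vehicle and 83.5 and 99.0 in treated B6 explants (1.30 ± 0.18). Ifit2, which binds viral RNA, went from 1145 and 1032 to 2169 and 2362 (1.06 ± 0.09, adjusted p = 4.1e-05) in B6, and was at 2099.9 and 1944 with vehicle and 2127 and 2120.3 with CHIR99021 in 129. The GTPase gene Irgm1 went from 854 and 794 to 1604 and 1562 (0.94 ± 0.10) in B6 and was at 1573 and 1537 with vehicle and 1547 and 1435 with CHIR99021 in 129. For both genes the treated B6 arrays thus reached the level that vehicle explants of 129 already had. Rsad2, the antiviral enzyme viperin, rose from 1370.4 and 1538 to 2888 and 3326 (1.09 ± 0.13). Psmb9, a subunit of the immunoproteasome, fell from 653 and 586 to 390.3 and 399 (-0.65 ± 0.10), and of 14 genes of antigen presentation 2 fell (H2-D1 and H2-K1) and none rose. The markers of microglia fell over the same arrays, as given above, and the part of this in the interferon-inducible genes was not tested. Among antigen presentation genes, the number called lower was 0 without vehicle replicate 2 or CHIR99021 replicate 2, 1 without vehicle replicate 1 or CHIR99021 replicate 1 and 4 without intact replicates 1 or 2. In fits without 1 array, the adjusted p reached 0.14 for H2-D1 (without any 1 of the 4 arrays) and 0.067 for H2-K1 (without vehicle replicate 2 or CHIR99021 replicate 2).

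**Figure D5:**
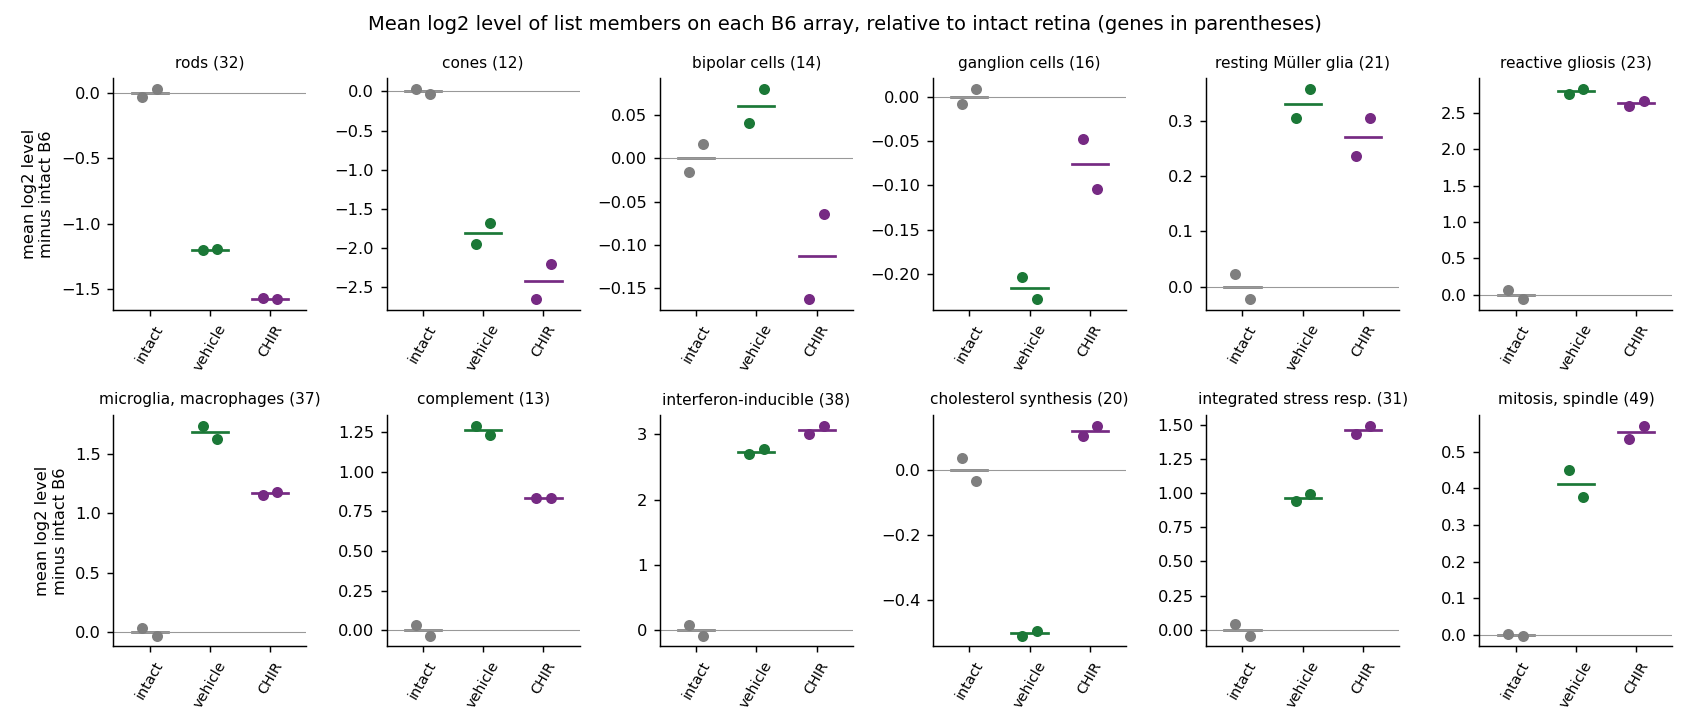
Mean log2 level of the members of 12 gene lists on each B6 array (vertical axis), relative to the mean of intact retina, for intact retina (grey), vehicle explants (green) and CHIR99021 explants (purple); each point is an array, each bar the mean of the 2, and the vertical scale differs between panels. The means of rods and cones were lower in culture and lower again with CHIR99021, those of microglia and complement were higher in culture and part of the way back with it, and that of cholesterol genes was lower in culture and above the intact level with it.

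Extracellular matrix genes went in both directions. Of 32, 8 rose and 6 fell, beside 8.59% and 12.5% of all genes. Postn, periostin, was at 52.8 and 54.3 in vehicle and 178 and 194 in treated explants (1.79 ± 0.10, adjusted p = 3.7e-06), and changed by 0.51 in 129, with a difference of 1.28 ± 0.14 (adjusted p = 0.0035). The collagenase gene Mmp13 went from 7.81 and 8.09 to 18.4 and 32.2 (1.61 ± 0.21), the macrophage elastase gene Mmp12 from 176 and 173 to 511 and 415 (1.40 ± 0.17) and the aggrecanase gene Adamts4 from 42.4 and 47.6 to 105 and 86.6 (1.09 ± 0.10). A second aggrecanase gene, Adamts5, went the other way, from 1368 and 1185 to 417 and 526 (-1.44 ± 0.11). Fn1, fibronectin, fell from 1182 and 1009 to 468 and 475 (-1.21 ± 0.08). Of 16 genes of endothelial and mural cells 6 fell and none rose, with the pericyte receptor gene Pdgfrb at 269 and 277 with vehicle and 164 and 181 with CHIR99021 (-0.66 ± 0.11). Among matrix genes, the number called higher was 5 without vehicle replicate 2 or CHIR99021 replicate 2, and the number called lower was 3 without vehicle replicate 2 or CHIR99021 replicates 1 or 2. Among vessel genes, the number called lower was 2 without CHIR99021 replicate 2.

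Signals other than Wnt were measured as well. Of 18 genes of TGF-β and BMP signalling 5 rose and 3 fell, beside 8.59% and 12.5% of all genes. Tgfb2, the main TGF-β of the eye, rose from 1211 and 1319 to 2262 and 2172 (0.81 ± 0.07), and Id1, a target of BMP signals, from 299 and 264 to 495 and 498 (0.82 ± 0.14). Ankrd1, a target of YAP, rose from 54.6 and 48.0 to 128 and 109.7 (1.21 ± 0.16), while Ccn2, another such target, fell from 478 and 391 to 181 and 196 (-1.20 ± 0.22). In all, 2 of 17 YAP and TEAD genes rose and 3 fell. Of 18 AP-1 and immediate early genes 5 rose and none fell, among them Fos from 1678 and 1522 to 2649 and 2635 (0.73 ± 0.17). Of 14 genes of the IGF system, Irs2, an adaptor of the insulin receptor, fell from 289 and 272 to 159 and 163 (-0.80 ± 0.08), and Igf1r (-0.47 ± 0.08) and 2 more fell (Insr and Igf2), while 2 rose (Igf1 and Igf2r). Among TGF-β and BMP genes, the number called higher was 3 without CHIR99021 replicate 1. Among AP-1 genes, the number called higher was 3 without CHIR99021 replicates 1 or 2. Among IGF genes, the number called higher was 0 without vehicle replicate 2 or CHIR99021 replicate 2. Without 1 of the arrays, the adjusted p reached 0.098 for Fos (without vehicle replicate 2 or CHIR99021 replicates 1 or 2), 0.13 for Igf2 (without vehicle replicate 2 or CHIR99021 replicates 1 or 2), 0.061 for Igf1 (without vehicle replicate 2 or CHIR99021 replicate 2) and 0.11 for Igf2r (without vehicle replicate 2 or CHIR99021 replicate 2).

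Among metabolic genes, the metallothioneins Mt1 and Mt2 fell, from 13079 and 13836 to 8232 and 9062 (-0.64 ± 0.14) and from 13456 and 13878 to 8762 and 9114 (-0.61 ± 0.13), and the glutathione transferase gene Gstm1 from 720.1 and 759.7 to 315 and 396 (-1.07 ± 0.19). In all, 7 of 27 NRF2 targets and antioxidant genes fell and 2 rose, beside 12.5% and 8.59% of all genes. Of 28 genes of glycolysis and hypoxia 4 rose and 5 fell. The hypoxia gene Ankrd37 fell from 226 and 271 to 82.6 and 117 (-1.33 ± 0.16), while Vegfa rose by 0.46 ± 0.10. Of 24 genes of the respiratory chain 8 rose, by 0.23 to 0.37 (Ndufa10 to Ndufs1), and 1 fell. Of 18 clock genes 6 fell, with the output factor Dbp at 4347 and 4310.3 with vehicle and 2803 and 2926 with CHIR99021 (-0.60 ± 0.07) and Per3 at 657 and 625 with vehicle and 421 and 418 with CHIR99021 (-0.61 ± 0.07), and 2 rose. Among antioxidant genes, the number called higher was 0 without CHIR99021 replicate 2 and 1 without vehicle replicates 1 or 2, and the number called lower was 4 without vehicle replicate 2 or CHIR99021 replicate 1. Among glycolysis genes, the number called higher was 0 without CHIR99021 replicate 2, 1 without vehicle replicate 1 and 2 without vehicle replicate 2. Among respiratory chain genes, the number called higher was 1 without CHIR99021 replicate 2, 2 without vehicle replicates 1 or 2 and 5 without CHIR99021 replicate 1. Among clock genes, the number called higher was 1 without vehicle replicate 2 or CHIR99021 replicates 1 or 2. With 1 array left out, the adjusted p reached 0.069 for Mt1 (without vehicle replicate 2 or CHIR99021 replicate 1), 0.062 for Mt2 (without vehicle replicate 2 or CHIR99021 replicate 1), 0.077 for Vegfa (without vehicle replicate 1 or CHIR99021 replicate 2), 0.14 for Ndufa10 (without 6 of the 12 arrays in turn) and 0.051 for Ndufs1 (without CHIR99021 replicate 2).

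The remaining lists held few calls, beside 8.59% of all genes called higher and 12.5% lower. Of 20 Notch pathway genes Jag2 and Hey2 fell, of 12 EGF family genes Egfr fell and Tgfa rose, of 17 FGF genes Fgfr1 and Fgf11 fell, and of 12 ERK feedback genes Dusp5 rose and Dusp4 fell. No gene of the pigmented epithelium, T cells or lens was called. The lens gene Crybb1 was at 51.8 and 53.8 in vehicle and 329 and 346 in treated explants, a log2 change of 2.67 ± 0.85 with an adjusted p of 0.051. The summed intensity of 15 lens genes was 580.3 and 559 with vehicle and 963 and 1014 with the inhibitor. In 1 array of intact 129 retina it was 31309, and the spread of Crybb1 there enters the pooled error. Without either array of intact 129 retina 4 lens genes were called higher and 1 lower. Among Notch genes, the number called lower was 0 without vehicle replicate 2 or CHIR99021 replicate 1 and 1 without vehicle replicate 1 or CHIR99021 replicate 2 or 129 vehicle replicates 1 or 2. Among FGF genes, the number called lower was 0 without vehicle replicate 2 or CHIR99021 replicate 1 and 1 without vehicle replicate 1. Leaving out 1 array, the adjusted p reached 0.077 for Jag2 (without vehicle replicate 2 or CHIR99021 replicate 1), 0.21 for Hey2 (without 10 of the 12 arrays in turn), 0.19 for Tgfa (without 10 of the 12 arrays in turn), 0.14 for Fgf11 (without any 1 of the 4 arrays) and 0.079 for Dusp4 (without vehicle replicate 2 or CHIR99021 replicate 1).

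A pair of further lists were drawn up after the values had been seen, and are described without a test of the list. Of 44 genes of the lysosome and its regulators 19 were called higher and 2 lower, with a median of 0.22. Of all genes 8.59% were called higher and 12.5% lower. They included the acid ceramidase gene Asah1, from 601 and 537 to 1066 and 1059 (0.90 ± 0.08), the hexosaminidase gene Hexa (0.50 ± 0.07), the proton pump gene Atp6v1h (0.69 ± 0.09) and the regulators of mTORC1 at the lysosome Rragd (0.64 ± 0.09) and Fnip1 (0.63 ± 0.07). Ctsf, a cathepsin gene, fell from 749 and 793 to 358 and 365 (-1.09 ± 0.08). Of 25 targets and partners of FOXO factors 16 were called lower and none higher, beside the same shares, with a median of -0.38. The ubiquitin ligase gene Fbxo32 fell from 252 and 236 to 102 and 120.0 (-1.14 ± 0.10), Klhl24 from 449 and 471 to 174 and 165 (-1.44 ± 0.07) and the cyclin gene Ccng2 from 431 and 402 to 179 and 203 (-1.12 ± 0.10). In 129, 22 of the lysosome list rose and 12 of the FOXO list fell, beside 7.28% and 7.86% of all genes. Among lysosome genes, the number called lower was 1 without CHIR99021 replicate 2.

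Much of the response was common to both strains. In 129 explants 5517 probes were called (12.2%), a number that fell to 2669 and 2131 without 129 vehicle replicates 1 and 2 and to 2495 and 2968 without 129 CHIR99021 replicates 1 and 2. Of the probes called higher in B6, 1324 were called higher in 129, which was 31.2% of those of B6 and 50.1% of those of 129. Of the probes called lower, 1769 were called in both, 42.8% of those of B6 and 61.6% of those of 129, and 48 probes were called in opposite directions. Over 18193 genes, which are not independent of each other, the changes in B6 and 129 correlated at r = 0.691 and rho = 0.573; the 2 comparisons shared no array. The test of the difference itself called 610 probes (1.35%), 435 with a higher and 175 with a lower log2 change in B6.

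Genes with a called difference of the 2 responses included many of those above. On the RMA values, which were low with vehicle, for Nox4 the B6 change exceeded the 129 change by 2.77 ± 0.19 (adjusted p = 5.0e-04), for Cxcl5 by 1.58 ± 0.21 and for Esm1 by 1.21 ± 0.18. Slc35d3 and Fxyd3 differed by -1.51 ± 0.17 and -1.56 ± 0.15, with the larger fall in B6. Calcb rose in both strains and by less in B6, with a difference of -2.50 ± 0.20 (adjusted p = 7.9e-04). In 129 it went from 15.1 and 17.4 to 379.7 and 289. With 1 array left out the number of called differences was 219 and 287 without B6 vehicle replicates 1 and 2, 192 without B6 CHIR99021 replicate 1, 297 and 149 without 129 vehicle replicates 1 and 2, and 204 and 350 without 129 CHIR99021 replicates 1 and 2.

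The differences with a higher log2 change in B6 lay mostly on weaker probes of a gene. Of 391 named probes with such a difference, 65 (16.6%) were the strongest probe of their gene. With a lower log2 change in B6, 109 of 154 were (70.8%). Among all 34945 named probes, 18193 were the strongest of their gene. The calls in B6 alone were split in a like way. Those higher lay on 1562 strongest and 2282 weaker probes, and those lower on 2276 strongest and 1182 weaker probes. A weaker probe of Golm2, a Golgi membrane protein gene, rose by 2.35 ± 0.13 in B6 and changed by -0.12 in 129, while the strongest probe of Golm2 changed by 0.02 in B6. A zinc finger gene, Rlf, showed the same on a weaker probe (2.06 ± 0.13 in B6, 0.25 in 129), as did the uncharacterized transcript 4632427E13Rik on a weaker probe (1.45 ± 0.21 and -0.66), whose strongest probe fell by 0.62 in B6. Kif2c, a mitotic kinesin gene, had its difference on a weaker probe, with -0.09 ± 0.16 in B6 and 2.29 in 129. Across 9010 genes with several probes, 134 had probes called in opposite directions in B6 and 14 in 129. Which transcripts these probes read was not tested.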

How the data were processed

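RNA of neural retina was hybridised to Affymetrix Mouse Genome 430 2.0 arrays, 2 in each of 6 groups. The authors deposited 1 table of RMA intensity values on a linear scale for all 12 arrays, named RMA in the submitters' processing notes; its version and software are not given in the sources used here. RMA corrects background, quantile normalizes and summarises each probe set (here called a probe), so a shift common to most genes would be removed. Per the methods, control explants received DMSO as vehicle, with EdU. The methods name more than 1 dose of CHIR99021, and the 15 µM of the labels was used.

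Here 64 control probes of 45101 were left out and values were taken to log2. A linear model over the 6 groups with empirical Bayes variances was fitted in limma 3.58.1 (R 4.3.3), with 6 residual and 4.69 prior degrees of freedom, and p-values were adjusted by Benjamini-Hochberg over 45037 probes. Errors are standard errors of this model. Of these probes 34945 had 1 gene symbol in the platform annotation, 932 several and 9160 none, and the probe with the highest mean stood for its gene. On simulated data with 200 changed probes the fit called 53.7% of changes of 1.5-fold, 94% of 2-fold and 100% of 4-fold. With so few changed probes the adjustment is stricter than in the data, where 8379 were called. These shares are therefore not those of calls in the data, where the smallest called log2 change was 0.209.

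The comparison, gene lists and named genes were chosen with earlier results of these data known. Genes were named by a rule: the 15 largest rises and falls among called, non-overlapping probes with 1 symbol, up to 6 largest of each list and any member of the lists for Wnt, cell cycle, Müller glia and progenitors, genes named by the study, and the 6 largest differences between strains. Of the 228 genes named, 199 met this rule and 29, such as Frat1, Cxcr4 and the lysosome and FOXO genes, were chosen after their values were seen, as were those 2 lists. Alternatives were a replicate block, only the arrays compared, probes above the median level, cyclic loess, centring on housekeeping genes, a trended and robust prior, the median over a gene's probes and leaving out each array. Promoter windows were those of RefSeq on GRCm38.p6.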

Additional observations from a re-analysis of the deposited data

Results flagged for a closer look

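For 37 of the results named above the response to CHIR99021 differed between B6 and 129 explants by limma's test of the difference itself, at an adjusted p below 0.05. Each value is the log2 change in B6 minus that in 129. On the lists of mitosis and replication the log2 change was lower in B6. Cdc20 (-1.78), Mki67 (-1.76), Ccnb2 (-1.42) and Cdk1 (-1.35) rose in 129 and were not called in B6. The rise was smaller in B6 for Cenpf (-1.34), Pbk (-1.26) and Nusap1 (-1.24). Mcm7 (-1.04) and Bub1b (-0.87) were called lower in B6. Other genes with a smaller rise in B6 were Calcb (-2.50) and Sp5 (-0.83). Esco2 (-2.06) and Depdc1a (-2.05) rose in 129 and were not called in B6. The fall was larger in B6 for Fxyd3 (-1.56), Slc35d3 (-1.51), Aif1 (-0.87), Tyrobp (-0.68), Mbd1 (-0.59), C1qa (-0.57) and Frat1 (-0.50). Lin28a (-0.78) changed by -0.39 in B6 and 0.39 in 129. The rise in B6 exceeded the change in 129 for Nox4 (2.77), Cxcl10 (1.77), Cxcl5 (1.58), Postn (1.28), Esm1 (1.21) and Mrc1 (1.12). The same held for Irgm1 (1.004), Ifit2 (0.99), Adamts4 (0.96) and Msmo1 (0.89). Il6 (1.63) and Aqp4 (1.0002) fell in 129 and were not called in B6. On probes that were not the strongest of their gene the differences were 2.47 for Golm2, -2.38 for Kif2c, 2.12 for 4632427E13Rik and 1.81 for Rlf. These calls were not equally firm over the alternative settings, which include fits without 1 array. The call was lost in 13 of 18 settings for Frat1, 11 for Msmo1, 10 for C1qa and 9 each for Mbd1 and Cxcl10. It was lost in 8 of 17 for Mrc1, 7 of 18 for Aqp4 and 7 of 17 each for Sp5 and Cenpf. Fewer settings lost it for Aif1, Lin28a, Cdk1, Pbk, Bub1b, Tyrobp and Adamts4, and none did for the others. The causes of these differences were not tested.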

How the results depend on the processing

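In B6, 8379 probes were called, 6044 to 9980 under other settings and 4756 to 8779 with 1 array left out, and each of the 4 explant arrays of B6 lowered the count by over 1.5 times when left out. At an unadjusted p below 0.05 there were 13982. Those at 2-fold or more numbered 489, with a range of 346 to 530 over all settings. In 129, 5517 were called, and 2131 to 5799 with 1 array left out, the lowest without 129 vehicle replicate 2. Leaving out any of the 4 explant arrays of 129 gave at most 2968. Of the differences between strains 610 were called, 149 to 789 with 1 array left out, the lowest without the same array, and 1464 with a trended and robust prior. Culture changed 14188 probes, 10538 to 15027 over all settings, which were chosen for it after seeing the data. Of the members of all lists 364 were called, and 229 to 373 with 1 array left out, the lowest without B6 vehicle replicate 2. Centring on housekeeping genes moved the share called higher in B6 from 50.6% to 60.6%, with 4567 probes higher and 2974 lower. This share went from 47.9% to 74.4% in 129 and from 71.3% to 60.7% for the difference between strains.

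Replicate numbers did not pair the arrays, since deviations of the B6 vehicle and CHIR99021 arrays correlated at r = 0.0123. With the replicate number as a block, the calls were 7774 in B6 (490 at 2-fold or more), 5066 in 129, 519 for the difference, 13771 for culture and 349 among list members.

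Of 228 named results 202 were called in B6, of which 147 stayed called in every setting and 0 changed direction. Reversals were of uncalled values. Ctnnb1 gave -0.0143 under cyclic loess and Fgf2 0.0265 under housekeeping centring. With 1 array left out, log2 changes ran from -0.0167 to 0.0404 for Ctnnb1, from -0.244 to 0.0226 for Aqp4, from -0.019 to 0.0433 for Ednrb, from -0.275 to 0.257 for Fgf2, from -0.285 to 0.14 for Il6 and from -0.303 to 0.123 for the weaker probe of Kif2c. The causes were not tested. The number of arrays, 2 in each group, limits the precision.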
